A study of Mus musculus with 9 samples.

Results

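The nuclear genes for the proteins of the mitochondrial ribosome were followed in C2C12, a line of mouse myoblasts able to form myotubes, after 72 h with 1 nM or 10 nM 1,25-dihydroxyvitamin D3 (calcitriol, the active hormone) or with vehicle. The genes were taken as every non-control probe whose gene name begins with Mrpl or Mrps and a number, which gave 106 of the 39429 probes on the array and 76 of 30157 named genes or transcripts, 47 of them Mrpl (named for the large subunit) and 29 Mrps (named for the small subunit). Total RNA of 9 cultures was labelled with Cy3 and hybridised to one-colour Agilent arrays, with 3 biological replicates each of vehicle, 1 nM and 10 nM per the series' design text. The title names myotubes, but the labels do not say at what stage of differentiation the compound was added. All groups come from 1 cell line, and the labels name no transgene or further agent.

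Mitochondria carry their own ribosome, which makes only the proteins encoded in mitochondrial DNA, all of them subunits of the respiratory chain and ATP synthase. Its RNA comes from mitochondrial DNA, while its proteins are encoded in the nucleus, made in the cytosol and imported. The large subunit forms the peptide bond and the small subunit reads the messenger. Many of the proteins have a bacterial counterpart and the others are found only in mitochondrial ribosomes. Muscle fibres depend on this ribosome for oxidative metabolism.

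Values are log2 of the processed signal minus the 75th percentile of each array, so 0 is the 75th percentile of that array. Such values compare one probe across arrays and not one probe with another. Of the 106 probes, 105 exceeded background clearly on every array of 1 or more groups and 102 did so on all 9 arrays, and all 76 genes had such a probe. The probe left out was one of a pair for Mrpl21, and it was above background on 1 of 9 arrays. The 75th percentile lay between 2826 and 3389 intensity units and no spot was saturated. The array of vehicle replicate 3 stood apart, with 13.8% of its spots non-uniform and 96.4% of them above background, against 67.1% to 79.2% above background on the other arrays. Of the 133 member spots, 2 were left out as non-uniform on that array and 1 on the array of 10 nM replicate 3.

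Of the 76 genes, 67 had a start site window in RefSeq (mouse build GRCm38.p6). The 250 bases before the start are printed for 4 genes whose signal rose at 10 nM and which held a match there. Letters of an ETS core (CCGGAAG) or of an NRF1-like palindrome (GCGC, any 2 bases, GCGC) are in capitals. Mrpl41 and Mrpl16 rose more than Mrps18a and Mrps21 and held neither motif in their windows. ETS factors such as GABP, and NRF1, are known activators of nuclear genes for mitochondrial proteins.
Mrpl34 (chr8:71464676-71464925, plus strand): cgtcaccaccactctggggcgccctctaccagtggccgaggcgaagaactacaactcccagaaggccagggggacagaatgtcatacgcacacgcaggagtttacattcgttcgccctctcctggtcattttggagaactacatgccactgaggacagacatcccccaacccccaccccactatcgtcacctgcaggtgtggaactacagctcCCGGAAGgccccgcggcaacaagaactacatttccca
Mrpl43 (chr19:45006443-45006692, minus strand): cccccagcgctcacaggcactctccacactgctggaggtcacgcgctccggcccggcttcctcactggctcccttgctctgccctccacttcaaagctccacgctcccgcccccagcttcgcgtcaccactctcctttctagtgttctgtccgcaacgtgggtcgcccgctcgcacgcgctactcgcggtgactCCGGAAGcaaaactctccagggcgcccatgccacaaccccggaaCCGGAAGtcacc
Mrps18a (chr17:46110754-46111003, plus strand): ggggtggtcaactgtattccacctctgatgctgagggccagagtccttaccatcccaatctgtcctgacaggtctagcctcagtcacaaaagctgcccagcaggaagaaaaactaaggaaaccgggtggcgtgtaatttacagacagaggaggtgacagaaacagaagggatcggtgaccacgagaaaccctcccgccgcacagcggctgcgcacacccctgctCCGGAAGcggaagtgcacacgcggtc
Mrps21 (chr3:95871515-95871764, minus strand): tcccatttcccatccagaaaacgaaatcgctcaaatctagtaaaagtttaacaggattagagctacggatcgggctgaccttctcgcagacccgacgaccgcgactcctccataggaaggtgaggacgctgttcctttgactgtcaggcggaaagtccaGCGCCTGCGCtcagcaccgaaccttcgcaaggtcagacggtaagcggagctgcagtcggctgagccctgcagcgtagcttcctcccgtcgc
The ETS core ended 31 bases before the start in Mrpl34 and 20 bases before it in Mrps18a. Mrpl43 held 2 ETS cores, and Mrps21 an NRF1-like match 82 bases before its start. Searched on both strands from 250 bases before to 50 after the start, the ETS core was found in 24 of the 67 genes (35.8%), against 12.9% of 17491 coding genes. The NRF1-like letters were found in 13 genes (19.4%), against 9.61% of coding genes. The YY1 letters AAGATGGCG were found in 8 genes (11.9%), against 2.14%, and the ERR element AAGGTCA in 4 genes (5.97%), against 4.73%. The GC box GGGCGG was found in 49.3% of the genes, against 49.2% of coding genes. Letters of a direct repeat of the kind bound by the vitamin D receptor, GNTCA, any 4 bases and GNTCA, were found for Mrpl35 and Mrps31, or 2.99% of the genes, against 0.766% of coding genes. Among genes that rose at 10 nM, 9 of 20 with a window held the ETS core, against 15 of 47 that did not pass the test. The other letters did not all lean that way. The shares were 15% against 21.3% for NRF1-like, 15% against 10.6% for YY1 and 5% against 6.38% for ERR. They were 35% against 55.3% for the GC box and 5% against 2.13% for the direct repeat. These splits were not tested. A match describes letters in the window and does not show a bound site.

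At 10 nM against vehicle, mitochondrial ribosomal protein genes were on balance slightly higher. Limma's moderated test with Benjamini-Hochberg adjustment over 21908 genes called 26 of the 76 higher, or 34.2%, against 15.5% of all genes called higher and 30.2% called in either direction. It called 0 lower, against 14.7% of all genes, and at an unadjusted p under 0.05 the counts were 39 higher and 1 lower. The change was positive for 67 genes, and its median was 0.22 on the log2 scale, with a lower quartile of 0.08 and an upper quartile of 0.29. The 3 arrays at 10 nM all lay above the 3 vehicle arrays for 42 genes, against 22.2% of all genes, and all below for 1 gene, against 22.3%. In cultures measured as a whole, fewer cells of a type and less RNA per cell cannot be told apart.

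Genes with bright probes served as a second background. Among 9154 genes above background on all 9 arrays and with a mean signal over the median, 25.2% were called higher at 10 nM. Their median change was 0.08, while over all genes the median was -0.11. The 10 nM arrays all lay above the vehicle arrays for 3321 of the 9154, and all below for 1814. The median of the mitochondrial ribosomal protein genes lay 0.14 above that of the bright genes. This distance ran from 0.11 to 0.16 under 21 settings of scaling, background, block and left-out array, the reported fit among them. It stayed at 0.14 when scaled to the array median or to bright probes, or with a trended and robust spread. The same held without the filter on dim probes, with the replicate block and without any single 1 nM array. Such settings can hardly move it, so they do not test it. Scaling to the median of each array in place of the 75th percentile moved the median of all genes to 0.40 and that of the members to 0.75, so the difference from all genes was 0.35 under that scaling and 0.33 as reported. That difference was 0.06 with normexp and quantile normalization, 0.07 in the submitters' table and 0.10 within slide 1. The share of calls depended on the normalization. With normexp and quantile normalization 10.5% of the members were called higher, against 14.3% of all genes, and 7.89% in the submitters' table, against 13.6%. Within slide 1 and under scaling to the array median, with or without vehicle replicate 3, the members' share was likewise below that of all genes. Calls also depended on single arrays. Without 10 nM replicate 2 the test called 9 members, or 11.8%, against 2528 of all 21908 genes and 18.2% of bright genes. Without 10 nM replicate 3 it called 11, without vehicle replicate 1 it called 16, without 10 nM replicate 1 it called 17, and without vehicle replicate 3 it called 23. On slide 1, with vehicle replicates 1 and 2 and the first replicate of each dose, the median was 0.18 with 0 called, and on slide 2, with vehicle replicate 3, 10 nM replicate 2 and 1 nM replicates 2 and 3, it was 0.26 with 13 called higher and 1 lower. Those fits within a slide had only 1 residual degree of freedom.

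**Figure D1:**
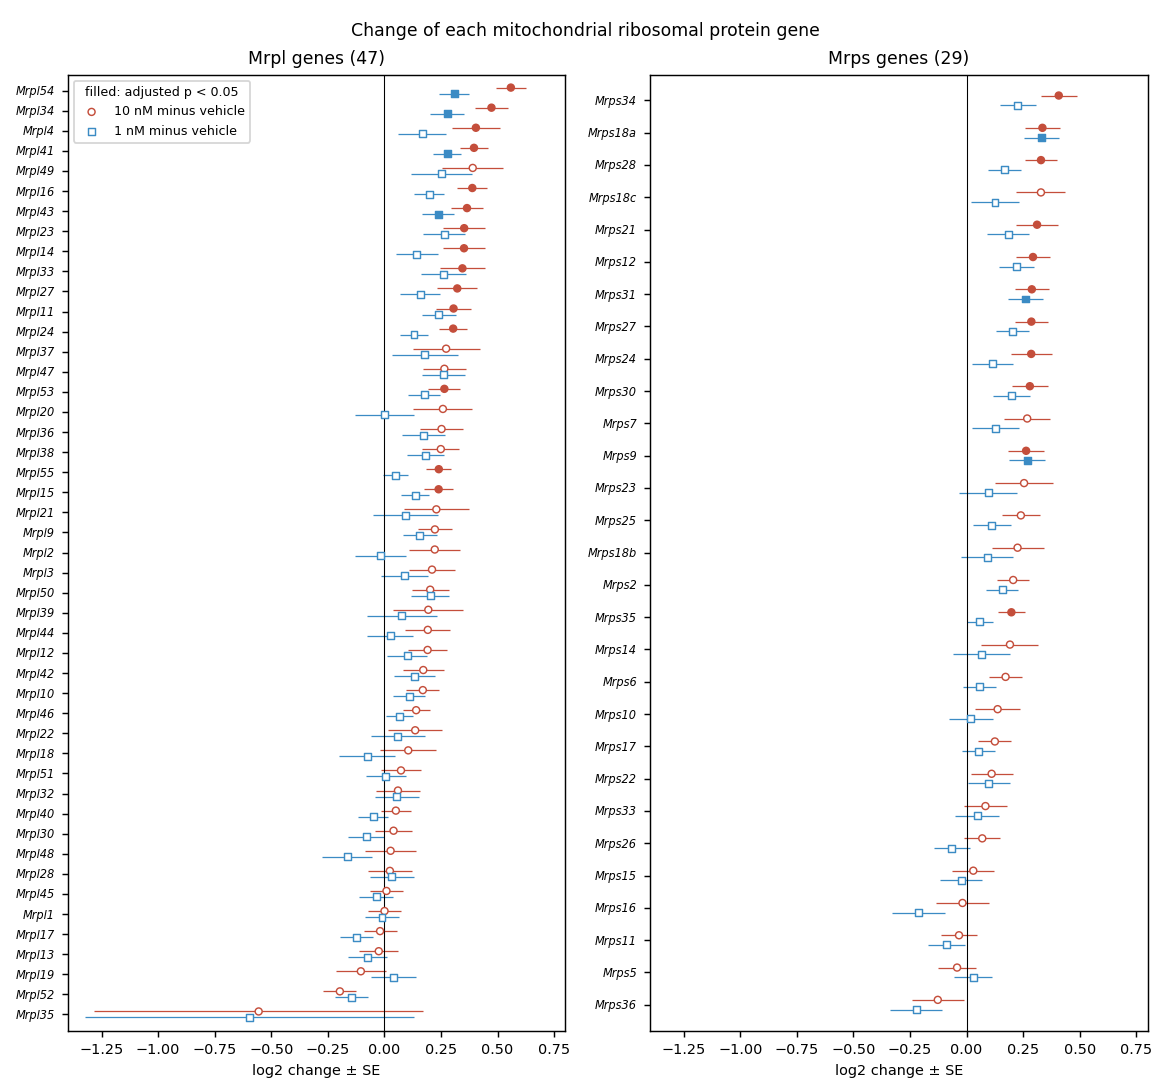
Log2 change of each of the 47 Mrpl genes (left) and 29 Mrps genes (right) at 10 nM minus vehicle (red circles) and at 1 nM minus vehicle (blue squares), with standard errors from the fit of 9 arrays as bars and filled symbols where the adjusted p is under 0.05. The 26 genes called at 10 nM all lie right of 0, and Mrpl35 has by far the widest bars.

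Mrpl54 and Mrpl34, genes for proteins of the large subunit, gave the highest changes, and Mrps34 of the small subunit came next (0.41). Mrpl54, a mitochondria-specific protein, read 2.46, 2.41 and 2.29 on the vehicle arrays, 2.73, 2.70 and 2.67 at 1 nM and 2.99, 2.90 and 2.96 at 10 nM. The 3 groups did not overlap and followed the dose. At 10 nM its change over vehicle was 0.56 ± 0.07 (SE, n = 3 per group; limma adjusted p = 0.000555), the highest of the 76 genes. Its probe lies at chr10:80727584-80727643 of mm9, the build of the probe coordinates in the files. Mrpl34, a short protein with a bacterial counterpart, read 1.84, 1.67 and 1.74 with vehicle, 1.96, 2.10 and 2.03 at 1 nM and 2.18, 2.30 and 2.20 at 10 nM. Again no array of one group reached into the next. The change of Mrpl34 at 10 nM was 0.47 ± 0.07 (SE; limma adjusted p = 0.00228; probe at chr8:73989526-73989585).

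Mrpl41 and Mrpl43 are further mitochondria-specific proteins of the large subunit. Mrpl41 gave 2.73, 2.78 and 2.70 with vehicle, 2.96, 3.03 and 3.06 at 1 nM and 3.17, 3.15 and 3.08 at 10 nM, and the groups were again ordered by dose. It changed by 0.40 ± 0.06 at 10 nM (SE; limma adjusted p = 0.00214; chr2:24829696-24829755), while a second, dimmer Mrpl41 probe at chr2:24828035-24828094 changed by 0.07 ± 0.14. Mrpl43 gave 3.93, 3.85 and 3.87 with vehicle, 4.06, 4.21 and 4.09 at 1 nM and 4.17, 4.25 and 4.32 at 10 nM. Both doses lay above vehicle for Mrpl43, and they overlapped each other. Its change at 10 nM was 0.37 ± 0.07 (SE; limma adjusted p = 0.00593; chr19:45079976-45080035).

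Of proteins with a bacterial counterpart, Mrpl16 lies near the peptidyl transferase centre, and Mrpl4, Mrpl23 and Mrpl24 line or border the exit tunnel of the bacterial ribosome's large subunit. Mrpl16 read 2.15, 1.98 and 2.03 with vehicle, 2.22, 2.26 and 2.26 at 1 nM and 2.43, 2.41 and 2.48 at 10 nM, with no overlap between groups and a change at 10 nM of 0.39 ± 0.07 (SE; limma adjusted p = 0.00318; chr19:11849233-11849292). Mrpl4 read 3.57, 3.60 and 3.59 with vehicle, 3.57, 3.86 and 3.84 at 1 nM and 3.84, 4.13 and 4.01 at 10 nM. Its first 1 nM array was level with vehicle and the 10 nM arrays lay above all 3 vehicle arrays, with a change of 0.40 ± 0.11 (SE; limma adjusted p = 0.0236; chr9:20813220-20813279). Mrpl23 read 3.38, 3.45 and 3.38 with vehicle, 3.51, 3.83 and 3.66 at 1 nM and 3.81, 3.80 and 3.65 at 10 nM. Both doses of Mrpl23 lay above vehicle and overlapped, with a change at 10 nM of 0.35 ± 0.09 (SE; limma adjusted p = 0.0253; chr7:149726589-149726647). It missed the threshold without vehicle replicate 3 (limma adjusted p = 0.0514). Mrpl24 changed by 0.30 and Mrpl11, a protein at the base of the ribosomal stalk, by 0.31.

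The groups were as clearly apart for Mrpl14 and Mrpl33 only at the higher dose. Mrpl14 gave 4.27, 4.32 and 4.30 with vehicle, 4.32, 4.53 and 4.49 at 1 nM and 4.50, 4.79 and 4.66 at 10 nM, a change at 10 nM of 0.35 ± 0.09 (SE; limma adjusted p = 0.0242; chr17:45835317-45835376). For Mrpl33 the vehicle arrays gave 5.55, 5.52 and 5.64, the 1 nM arrays 5.63, 5.97 and 5.88 and the 10 nM arrays 5.89, 6.0 and 5.86, a change at 10 nM of 0.34 ± 0.10 (SE; limma adjusted p = 0.0338; chr5:31924925-31924984). In both genes the first 1 nM array was close to vehicle. The other Mrpl genes called higher at 10 nM were Mrpl27 (0.32), Mrpl53 (0.27), Mrpl55 (0.24) and Mrpl15 (0.24), on the log2 scale.

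**Figure D2:**
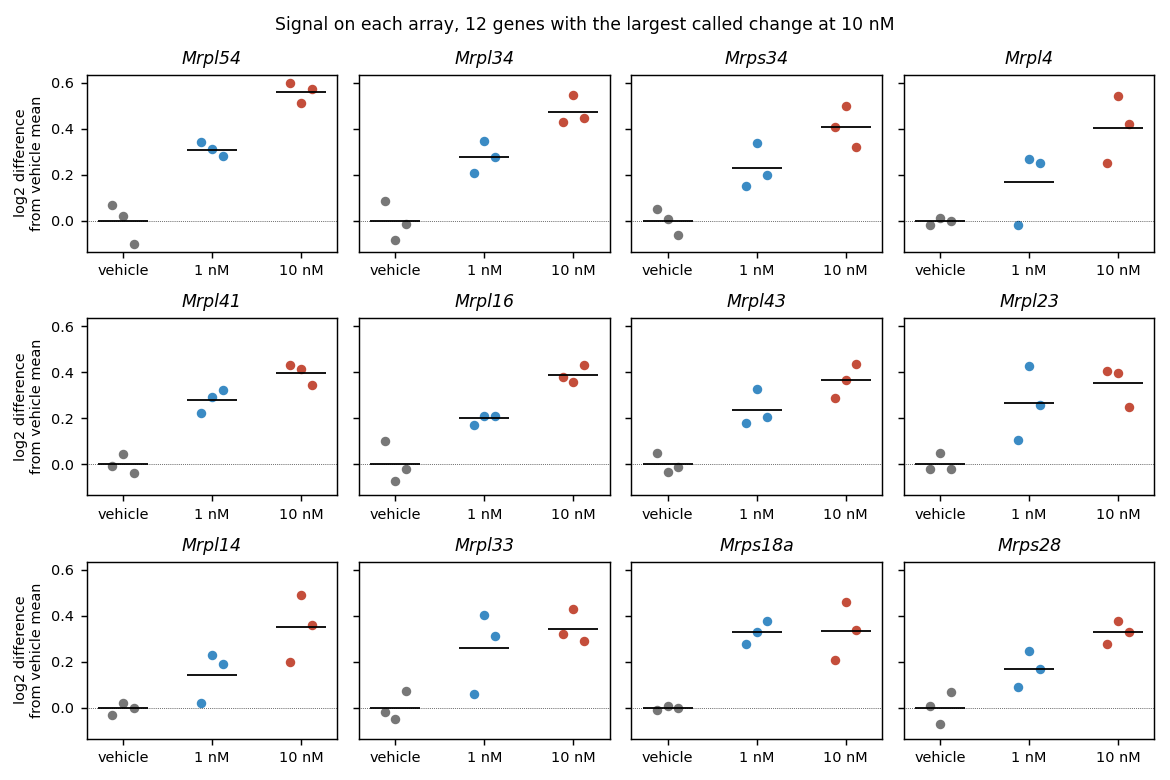
Signal of the 12 genes with the highest called change at 10 nM on each of the 9 arrays, as the log2 difference from the vehicle mean of the gene (points, 3 per group; bars, group means). In all 12 panels the 10 nM points lie above the vehicle points, which the choice of genes by this change favours. The 1 nM points of Mrpl4, Mrpl14 and Mrpl33 reach down to vehicle.

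Mrps18a belongs to a family of 3 proteins that share descent from one bacterial small subunit protein, and in the structure of the mammalian mitochondrial ribosome it sits in the large subunit. It read 1.96, 1.98 and 1.97 on the vehicle arrays, 2.25, 2.30 and 2.35 at 1 nM and 2.18, 2.43 and 2.31 at 10 nM. Both doses stood clear of vehicle and overlapped each other. The change was 0.33 ± 0.08 at 1 nM (SE; limma adjusted p = 0.0184) and 0.34 ± 0.08 at 10 nM (limma adjusted p = 0.0134; chr17:46265584-46265643). Its relatives did not pass the test. Mrps18c, which takes the place of the bacterial protein in the small subunit, changed by 0.33 ± 0.11 at 10 nM (limma adjusted p = 0.0558), with arrays from 2.64 to 2.82 at 10 nM and from 2.20 to 2.56 with vehicle. Mrps18b changed by 0.23 ± 0.12 (limma adjusted p = 0.184), and its groups overlapped. Mrps30, which the structure also places in the large subunit, was called higher by 0.28 ± 0.08 (SE; limma adjusted p = 0.0338).

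In the small subunit the highest change was that of Mrps34, a mitochondria-specific protein. It read 3.15, 3.11 and 3.04 with vehicle, 3.25, 3.44 and 3.30 at 1 nM and 3.51, 3.60 and 3.42 at 10 nM. Vehicle arrays lay below both doses. The change at 10 nM was 0.41 ± 0.08 (SE; limma adjusted p = 0.00644; chr17:25033156-25033215). For Mrps28, the vehicle arrays gave 2.61, 2.53 and 2.67, the 1 nM arrays 2.69, 2.85 and 2.77 and the 10 nM arrays 2.88, 2.98 and 2.93. Its groups were ordered by dose without overlap, and the change at 10 nM was 0.33 ± 0.07 (SE; limma adjusted p = 0.0108; chr3:8802222-8802281). Mrps12, whose bacterial counterpart lies at the decoding site and carries mutations to streptomycin resistance, read 2.37, 2.51 and 2.45 with vehicle, 2.56, 2.77 and 2.66 at 1 nM and 2.73, 2.78 and 2.71 at 10 nM. It changed by 0.29 ± 0.08 at 10 nM (SE; limma adjusted p = 0.0227; chr7:29524837-29524896) and by 0.22 ± 0.08 at 1 nM (limma adjusted p = 0.0797). Also called higher at 10 nM were Mrps21 (0.31), Mrps31 (0.29), Mrps24 (0.29), Mrps9 (0.26) and Mrps35 (0.20), and Mrps27, a protein with pentatricopeptide repeats (0.29), all on the log2 scale.

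The direction of the 26 called genes was positive in 21 of 21 alternative settings. These genes were chosen as called higher in the same data. Some settings, such as a trended spread or a left-out 1 nM array, cannot move their change, so the kept direction is not a test. The call itself was kept in 3 to 19 of the settings. Mrpl54 and Mrps34 kept the call in 19, losing it under scaling to the array median and within slide 1. Mrpl34, Mrpl41 and Mrps18a kept it in 18, and Mrps24 in 3. Without vehicle replicate 3, 20 of the 26 remained called.

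The other 50 genes did not pass the test at 10 nM. Mrpl12, a stalk protein with a bacterial counterpart, read 2.73, 2.95 and 2.79 with vehicle, 2.82, 3.01 and 2.93 at 1 nM and 2.92, 3.05 and 3.06 at 10 nM, with overlapping groups and a change at 10 nM of 0.19 ± 0.09 (SE; limma adjusted p = 0.145). Mrpl52 had the only groups that were apart in the downward direction at 10 nM. It read 5.05, 4.85 and 5.02 with vehicle, 4.82, 4.80 and 4.86 at 1 nM and 4.83, 4.75 and 4.75 at 10 nM, a change at 10 nM of -0.20 ± 0.07 that missed the threshold (SE; limma adjusted p = 0.0799). Mrpl52 was named after its values were seen, and it was called lower under 3 alternative settings, with an adjusted p of 0.0415 with a trended and robust spread, 0.0237 without vehicle replicate 2 and 0.0343 under scaling to bright probes. Mrps36, which despite its name is now known as a subunit of the 2-oxoglutarate dehydrogenase complex, changed by -0.13 ± 0.12 at 10 nM (limma adjusted p = 0.427) and by -0.22 ± 0.12 at 1 nM (limma adjusted p = 0.217). Mrpl35 had a dim probe, with vehicle arrays at -5.18, -5.41 and -2.34, 1 nM arrays between -5.05 and -4.82, and 10 nM arrays between -4.98 and -4.76. Vehicle replicate 3 stood above the other 8 arrays, and the change at 10 nM was -0.56 ± 0.73 (SE; limma adjusted p = 0.584). Within slide 2, where that array is the only vehicle array, Mrpl35 was called lower at both doses.

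Of the 76 genes, 26 had 2 or more probes above background, and the median spread between probes of a gene was 0.11 at 10 nM. For 3 genes it was above 0.5. The brighter Mrpl9 probe changed by 0.22 and the dimmer by -0.35 at 10 nM. Of 4 Mrpl47 probes, the brightest changed by 0.27 and another by -0.27. For Mrps7 the brighter probe changed by 0.27 ± 0.10, and a probe beside it by 3.24 ± 2.22, with only 2 of its 3 vehicle arrays above background. Counted by probe, 88 of 105 changes were positive at 10 nM.

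At 1 nM against vehicle the median change of the same genes was above 0 but close to that of the bright genes. Limma called 7 of 76 higher, or 9.21%, against 11.8% of all genes and 18.5% of bright genes, and 0 lower, against 11.9% of all genes, while an unadjusted p under 0.05 gave 18 higher and 0 lower. The 7 were Mrps18a (0.33), Mrpl54 (0.31), Mrpl41 (0.28), Mrpl34 (0.28), Mrps9 (0.27), Mrps31 (0.26) and Mrpl43 (0.24) on the log2 scale, with standard errors of 0.06 to 0.08, and all 7 were also called at 10 nM, a comparison that shares the vehicle arrays. Their calls at 1 nM were kept in 1 to 15 of 21 alternative settings, with Mrpl43 in 1, Mrps9 in 4, Mrps31 in 5 and Mrpl34 in 7. Without vehicle replicate 3, 3 of the 7 remained called. The second, dimmer Mrpl41 probe changed by -0.03 ± 0.14 at 1 nM. Mrps9 read 0.35, 0.51 and 0.35 with vehicle, 0.59, 0.71 and 0.72 at 1 nM and 0.60, 0.76 and 0.64 at 10 nM, so the doses overlapped (limma adjusted p = 0.0471 at 1 nM and 0.0415 at 10 nM). Mrps31 likewise read 1.51, 1.65 and 1.60 with vehicle, 1.80, 1.85 and 1.89 at 1 nM and 1.76, 1.97 and 1.89 at 10 nM (limma adjusted p = 0.0449 at 1 nM and 0.0246 at 10 nM). The arrays at 1 nM all lay above those of vehicle for 25 of the 76 genes, against 19.8% of all genes and 2893 of 9154 bright genes. The share was thus close to that of the bright genes. The change was positive for 60 genes, with a median of 0.10, which lay 0.04 above the median of the bright genes. That distance ran from 0.02 to 0.07 under the same 21 settings (0.02 without 1 nM replicate 2), some of which can hardly move it. The spread between replicates of the members' median was 0.04. The members' median minus that of all genes was 0.19 as reported, -0.036 with normexp and quantile normalization and -0.029 in the submitters' table. The count of called members was 0 without 1 nM replicate 2, 1 without 1 nM replicate 3, 4 without 10 nM replicate 2 and 3 without 10 nM replicate 3. Without vehicle replicate 3, 4 were called higher, and Mrps16 (-0.36) and Mrps36 (-0.33) were called lower. Within slide 1 the median was 0.04 and 0 were called, and within slide 2 it was 0.14, with 8 called higher and 1 lower.

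Between the doses, 10 nM against 1 nM, limma called 0 of 76 genes in either direction, against 3.84% of all genes, 1.6% higher and 2.24% lower. At an unadjusted p under 0.05 the count was 6 higher and 0 lower, and a trended and robust spread called 1. The change was positive for 71 genes with a median of 0.10, and over all genes the median was -0.01. The 10 nM arrays all lay above the 1 nM arrays for 25 genes, against 12.6% of all genes and 1720 of 9154 bright genes. The changes over 1 nM of a pair of genes chosen after their values were seen were 0.26 ± 0.13 for Mrpl20 and 0.25 ± 0.07 for Mrpl54 (SE; limma adjusted p = 0.552 and 0.115). With the replicate number as a block the count was 0 as well.

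The large and the small subunit were compared by name. At 10 nM 15 of 47 Mrpl genes and 11 of 29 Mrps genes were called higher, with median changes of 0.22 and 0.23 on the log2 scale. At 1 nM 4 and 3 were called, with medians of 0.10 and 0.10. The Mrpl median minus the Mrps median was -0.003 at 10 nM and 0.003 at 1 nM, both smaller than the spread between replicates of 0.026 and 0.025. Placed by structure, with Mrps18a and Mrps30 in the large subunit and Mrps36 in neither, 17 of 49 genes of the large subunit and 9 of 26 of the small subunit were called at 10 nM. The order of the shares by name turned without vehicle replicate 3, where 16 Mrpl and 7 Mrps genes were called, or 17 and 6 by structure. It also turned without vehicle replicate 1, without any one of the 10 nM replicates and without 1 nM replicate 2 or 3. The higher share of the Mrps genes was therefore not stable. Left-out single arrays gave 6 to 16 Mrpl and 3 to 9 Mrps calls. The Mrpl count was lowest without 10 nM replicate 2 (6) and replicate 3 (8). The Mrps count was 3 without either of these, 4 without 10 nM replicate 1, 6 without vehicle replicate 1 or 1 nM replicate 3, and 7 without 1 nM replicate 2.

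Array by array, the median deviation of the Mrpl genes from their 9-array mean was -0.09, -0.12 and -0.12 with vehicle, -0.05, 0.05 and 0.01 at 1 nM and 0.06, 0.13 and 0.12 at 10 nM. That of the Mrps genes was -0.04, -0.11 and -0.13 with vehicle, -0.05, 0.03 and -0.00 at 1 nM and 0.07, 0.13 and 0.10 at 10 nM. In both subunits every 10 nM array was above every vehicle array, and in the Mrps genes the first 1 nM array was level with the first vehicle array. By origin, 16 of 46 genes with a bacterial counterpart and 10 of 29 mitochondria-specific genes were called at 10 nM, with median changes of 0.22 and 0.23. At 1 nM the counts were 2 of 46 and 5 of 29, with median changes of 0.10 and 0.11. Mrps18a and Mrps18b were counted as mitochondria-specific, although their family shares descent from a bacterial protein. Mrps18a was called at both doses, so the counts by origin depend on that placement. At 10 nM the counts were 4 and 5 without 10 nM replicate 2, 6 and 5 without 10 nM replicate 3, 11 and 5 without vehicle replicate 1 and 10 and 7 without 10 nM replicate 1. No test of these differences was made.

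**Figure D3:**
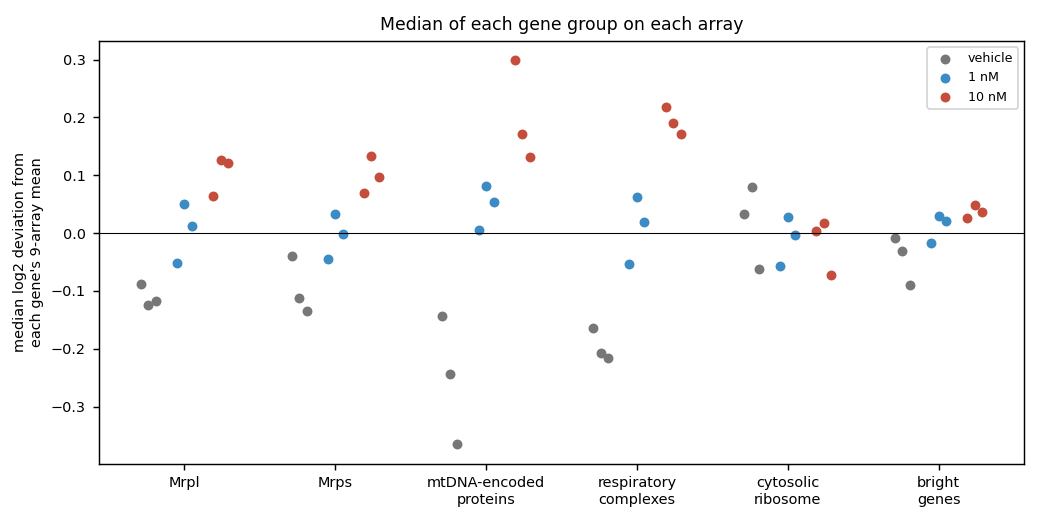
Median log2 deviation from the 9-array mean of each gene, for the Mrpl and Mrps genes, proteins encoded in mitochondrial DNA, subunits of the respiratory complexes, cytosolic ribosomal proteins and bright genes, on each vehicle (grey), 1 nM (blue) and 10 nM (red) array. The 10 nM points of the Mrpl and Mrps genes lie between 0.06 and 0.13, above their vehicle points, and the cytosolic ribosomal proteins show no such order.

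Genes that work beside the mitochondrial ribosome were counted against the same background at 10 nM, 15.5% of all genes higher and 14.7% lower, with 25.2% higher among bright genes. Of 7 ribosomal subunits with other names, 2 were called higher (28.6%) and 0 lower, with a median change of 0.23, and the count was 0 without 10 nM replicate 3 and 1 without 10 nM replicate 1 or 2 or 1 nM replicate 2. They were Dap3, a GTP-binding protein of the small subunit, with 0.29 ± 0.07, and Ptcd3, a pentatricopeptide protein of the small subunit, with 0.28 ± 0.08 (SE; limma adjusted p = 0.0142 and 0.0271). Of 23 genes for assembly of the ribosome and modification of its RNA, 11 were called higher (47.8%) and 1 lower, with a median of 0.25, and single left-out arrays gave 6 to 13 higher, with 6 without 10 nM replicate 2 or 3. Malsu1, an anti-association factor of the large subunit, changed by 0.64 ± 0.12, the helicase Dhx30 by 0.54 ± 0.10 and the GTPase Mtg1 by 0.39 ± 0.06, while Mettl15, a methyltransferase for the small subunit RNA, changed by -0.45 ± 0.09 (SE; limma adjusted p = 0.00568, 0.00435, 0.00159 and 0.00589).

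Of 15 translation factors and partners, 6 were called higher (40%) and 0 lower, with a median of 0.25. They included the elongation factor Tufm at 0.49 ± 0.08, the elongation factor Gfm1 at 0.53 ± 0.09 and the ribosome recycling factor Gfm2 at 0.50 ± 0.07 (SE; limma adjusted p = 0.00262, 0.00271 and 0.000837). Lrpprc, which stabilises mitochondrial messengers, changed by 0.53 ± 0.07, and its partner Slirp by 0.38 at 10 nM. Of 17 mitochondrial tRNA synthetases, 5 were called higher (29.4%) and 0 lower, with a median of 0.21, and single left-out arrays gave 2 to 4, with 2 without 10 nM replicate 2 or 3 or 1 nM replicate 2 and 3 without vehicle replicate 1 or 1 nM replicate 1 or 3. Among the called genes were Wars2 at 0.39 ± 0.07 and Hars2 at 0.33 ± 0.06 (SE; limma adjusted p = 0.00572 and 0.00458). Of 16 genes for maintenance and transcription of mitochondrial DNA, 2 were called higher (12.5%, below the share of all genes) and 1 lower. The higher count was 4 without vehicle replicate 3 and 5 without vehicle replicate 2. Pnpt1, an RNA-degrading enzyme, changed by 0.70 ± 0.08 and the transcription factor Tfb2m by 0.46 ± 0.09, while the topoisomerase Top1mt changed by -0.56 ± 0.06 (SE; limma adjusted p = 0.000465, 0.00834 and 0.000344). Tfam, which packages mitochondrial DNA, changed by 0.10 and the RNA polymerase Polrmt by 0.18, with adjusted p of 0.414 and 0.147.

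Among 11 regulators of mitochondrial genes, limma called 1 higher and 1 lower at 10 nM. Ppargc1b, a coactivator of nuclear genes for mitochondria, averaged -2.00 ± 0.20 at 1 nM and -1.38 ± 0.09 at 10 nM, against -2.34 ± 0.17 with vehicle (SD, n = 3 each), a change at 10 nM of 0.96 ± 0.13 (SE; limma adjusted p = 0.00088). Its change at 10 nM over 1 nM was 0.62, with an adjusted p of 0.0404. Myc changed by -0.28 ± 0.08 at 10 nM (SE; limma adjusted p = 0.027). That call was lost without any one of vehicle replicates 1 and 3, 10 nM replicates 1 and 3 and 1 nM replicate 3, with limma adjusted p of 0.0514 to 0.0811. The signals of Nrf1 and Gabpa, which bind the letters searched in the promoters, changed by -0.18 and 0.04 at 10 nM, with adjusted p of 0.316 and 0.702.

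**Figure D4:**
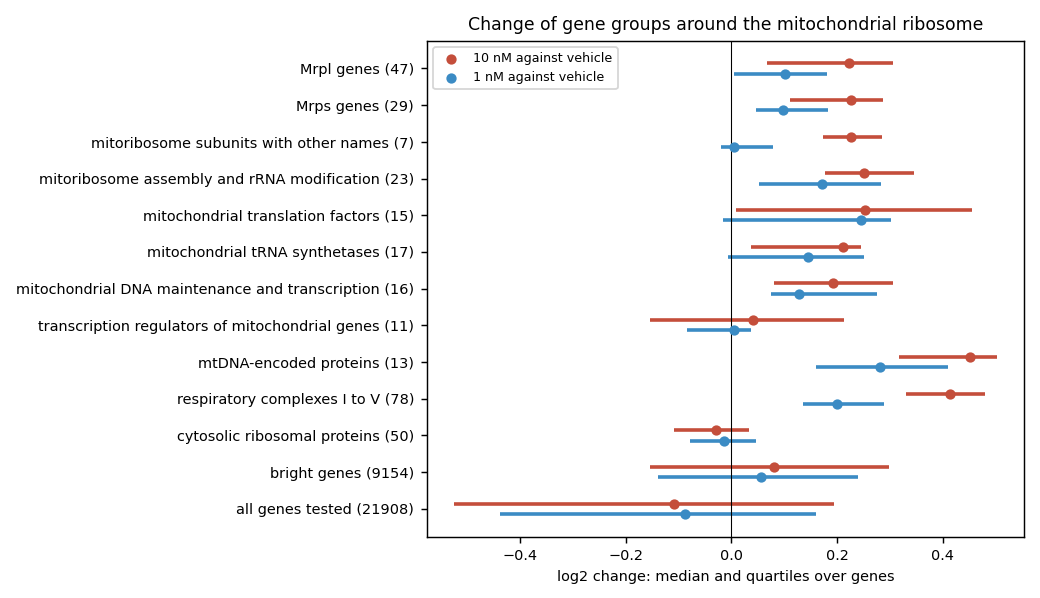
Median log2 change (points) and quartiles over genes (bars) of each gene group at 10 nM against vehicle (red) and 1 nM against vehicle (blue), with the number of genes in parentheses. The Mrpl and Mrps genes have medians of 0.22 and 0.23 at 10 nM, below those of proteins encoded in mitochondrial DNA (0.45) and of the respiratory complexes (0.41).

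The messengers that the mitochondrial ribosome translates can be set beside the genes for its proteins, as RNA, since no protein was measured. Of the 13 proteins encoded in mitochondrial DNA, 9 were called higher at 10 nM and 3 at 1 nM, with 0 lower and median changes of 0.45 and 0.28, and the count at 10 nM was 5 without 10 nM replicate 1. ATP8 of ATP synthase changed by 0.69 ± 0.08 and ND5 of complex I by 0.61 ± 0.12 at 10 nM (SE; limma adjusted p = 0.000578 and 0.00524). Nuclear genes for subunits of respiratory complexes I to V, chosen by name, had 59 of 78 called higher at 10 nM and 20 of 78 at 1 nM. The medians of these genes were 0.41 and 0.20. Cox7a1, the heart and muscle form of a cytochrome c oxidase subunit, had the highest change among them, 2.17 ± 0.16 at 10 nM (SE; limma adjusted p = 3.11e-05).

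The ribosome of the cytosol did not share the pattern of counts. Of 50 cytosolic ribosomal protein genes chosen by name, 0 were called higher and 4 lower at 10 nM, against 26 higher and 0 lower of the 76 mitochondrial ones. Of all genes 15.5% were called higher and 14.7% lower, so the cytosolic genes had a smaller share of calls both ways. The 4 were Rpl22l1, Rpl12, Rpl22 and Rpl13a, with changes from -0.32 to -0.24, and limma gave 0 higher and 5 lower at an unadjusted p under 0.05. Single left-out arrays gave 1 to 5 lower, with 1 without 10 nM replicate 2 or 3 and 2 without vehicle replicate 1 or 2 or 1 nM replicate 1 or 3, and 0 higher except without vehicle replicate 1 (1). The median change of the cytosolic genes was -0.03 at 10 nM, and it was positive under scaling to the array median (0.50; also with vehicle replicate 3 left out), with the slide block, within slide 2 and without vehicle replicate 2. Set against the bright genes on the same arrays, the cytosolic median lay 0.06 to 0.13 below them under the same 21 settings. The mitochondrial median lay 0.11 to 0.16 above them. Some of these settings can hardly move such distances. Many cytosolic ribosomal protein genes have processed pseudogenes, so their probes may take up signal of near-identical copies.

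Markers of the cell cycle and of muscle moved with the same groups. All 12 proliferation markers, such as Mki67 and Ccna2, were called lower at both doses, with median log2 changes of -4.79 at 10 nM and -4.15 at 1 nM. The log2 of their summed signal was 5.68 to 5.79 with vehicle, 3.65 to 3.70 at 1 nM and 3.64 to 3.67 at 10 nM. Of 9 myotube markers, 5 were called higher and 1, Myog, lower at 10 nM, against 15.5% and 14.7% of all genes, and 4 higher and 0 lower at 1 nM. At 10 nM 3 were called higher without vehicle replicate 3, and single left-out arrays gave 3 to 6, with 3 for every array but vehicle replicate 2 (6) and 10 nM replicate 2 (4). Myh1 changed by 0.90 ± 0.09 and Ttn by 1.02 ± 0.12 at 10 nM (SE; limma adjusted p = 0.000167 and 0.000404). The log2 of the summed signal of the 9 was 8.26 to 8.41 with vehicle, 8.60 to 8.74 at 1 nM and 8.71 to 8.77 at 10 nM. The part of these shifts in the results on the mitochondrial ribosome was not tested.

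Lists of markers of other cell types held only 3 to 5 genes above background, so their shares of calls rest on few genes. At 10 nM 20% of adipocyte and 33.3% of endothelial markers were called higher, against 15.5% of all genes. Of all genes 14.7% were called lower. Of 5 adipocyte markers above background, Adipoq was called higher at 10 nM, with a change of 7.67 ± 1.41 (SE; limma adjusted p = 0.00474), although it was above background on only 1 of 3 vehicle arrays. The log2 of the summed signal of the 5 was -3.63 to -1.24 with vehicle, -2.13 to -1.90 at 1 nM and 1.07 to 1.19 at 10 nM. The other adipocyte markers did not pass the test, with changes at 10 nM of -1.26 for Lep, -1.45 for Plin1, -0.44 for Cidec and 0.60 for Retn, and the median of the 5 was -0.44. Of 5 macrophage markers 0 were called at either dose, and at an unadjusted p under 0.05 there was 1 lower at each. Tek, above background on 1 of 3 vehicle arrays, was called higher among 3 endothelial markers, with 2.78 ± 0.12 at 10 nM, and Runx2 lower among 4 osteoblast markers, with -1.66 ± 0.10 (SE; limma adjusted p = 8.63e-06 and 1.06e-05). Cfd, Cdh5 and Alpl were not well above background on all arrays of any group. Their part in the result was not tested.

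**Figure D5:**
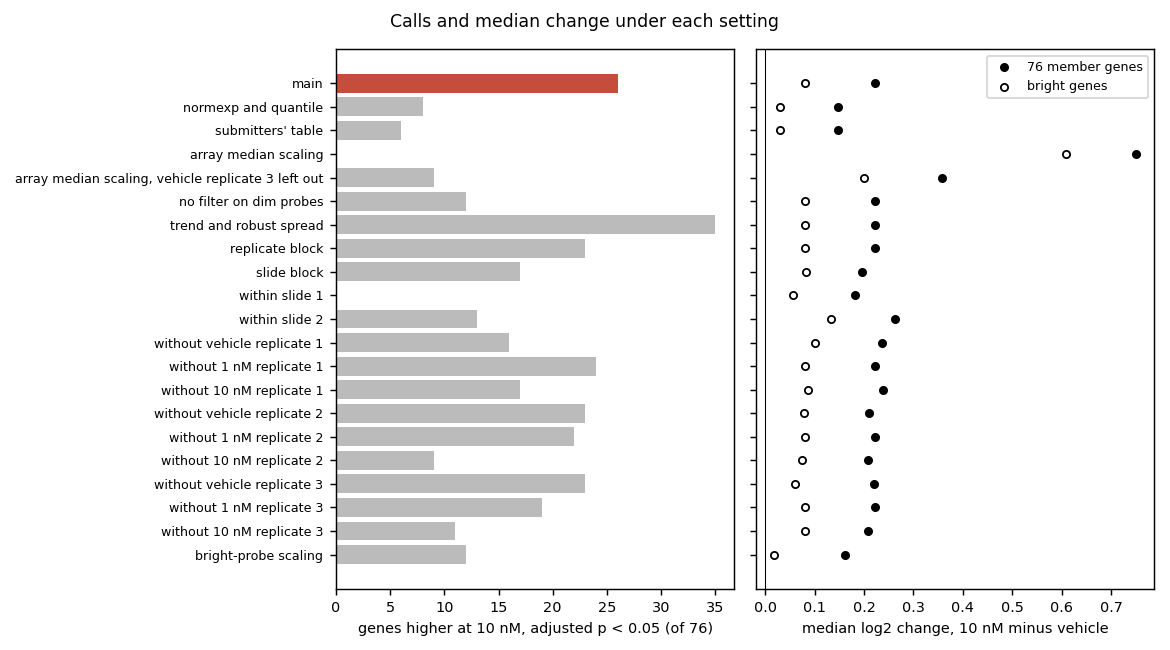
Left, number of the 76 genes called higher at 10 nM against vehicle as reported (red) and under each alternative setting (grey). Right, median log2 change at 10 nM of the 76 genes (filled) and of the bright genes (open) under the same settings. Calls run from 0 to 35, while the filled points lie 0.11 to 0.16 right of the open ones. Some settings, such as scaling to the array median, can hardly change that distance.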

How the data were processed

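In the deposited scanner files, signals and backgrounds are linear intensity values, and spot marks of 0 or 1 are other flags, per the file headers. The submitters' processing notes name limma and Agilent Feature Extraction 11.5.1.1. The authors' deposited series table holds log2 values, with column medians of 9.65 to 9.73. Its columns correlated at 0.9999 with quantile-normalized values after normexp correction, and it served as an alternative.

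Control spots and non-uniform spots were left out, spots of a probe averaged, and log2 processed signal scaled to the 75th percentile of each array. A probe was kept if it exceeded background clearly on every array of 1 or more groups (28342, or 71.9%), and the brightest kept probe stood for each of 21908 genes. Names came from a RefSeq table of GRCm38.p6 by accession or symbol, and otherwise from the files. In the file of 10 nM replicate 3, 27 probe names had been turned into dates, and names were taken from another array.

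Limma 3.58.1 in R 4.3.3 compared the groups in 1 fit without a block, with Benjamini-Hochberg adjustment over all genes and a threshold of 0.05. The procedure was tested on simulated data. Members and lists were chosen with earlier results of these data known. Members named were, among called genes, the 12 highest and 12 lowest changes per dose over vehicle and 5 each way for 10 nM over 1 nM. They also included those with no probe above background, those whose probes differed by over 0.5, Mrpl12, Mrps12, the Mrps18 family and Mrps36, and, per other list and dose, up to 4 called genes with the smallest p, or 2 where none was called. Other genes were named after their values were seen. Replicates are biological per the series' design text, and the number of arrays limits the precision.

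Deviations from group means of same-numbered 1 nM and 10 nM arrays correlated at 0.484, 0.33 and 0.141 across 20136 genes, so those numbers were taken as pairs, from the data. Vehicle numbers gave 0.055 to -0.421 and were not. Slide and scan date divided the arrays alike. Slide 1 held vehicle replicates 1 and 2 with the first replicate of each dose. The array of 10 nM replicate 3 was alone on slide 3. Treatment and slide were thus partly confounded. Same-numbered 1 nM and 10 nM arrays shared a slide for replicates 1 and 2, so pairing and slide cannot be told apart there. The closest arrays differed by 0.251 (root mean square, log2), and each counted as 1 sample. Exon and UTR positions of probes were not analysed here.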

Additional observations from a re-analysis of the deposited data

How the results depend on the processing

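At 10 nM the count of called members was 8 with normexp and quantile normalization, 6 in the submitters' table, 0 under scaling to the array median (9 with vehicle replicate 3 left out), 12 without the filter on dim probes, 17 with slide as a block, 0 within slide 1, 14 within slide 2 and 13 under scaling to bright probes, an alternative added after the data were seen. In the first of these, 10.5% of the members stood against 14.3% of all genes, and 7.89% in the submitters' table against 13.6%. At 1 nM these counts were 2, 2, 0 (1), 3, 3, 0, 9 and 4, a trended and robust spread gave 13, and every probe on its own gave 4. Between the doses that spread model called 1. Leaving out 1 array gave 9 to 24 calls at 10 nM, 0 to 8 at 1 nM and 0 to 0 between the doses. The replicate block gave 0 between the doses, where the numbers were taken as pairs, and 5 at 1 nM and 23 at 10 nM over vehicle. For vehicle and dose, 2 of 6 arrays at 1 nM and 0 of 6 at 10 nM were closest to their own number.

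Median changes at 10 nM were 0.15 with quantile normalization, 0.15 in the submitters' table, 0.75 and 0.36 under the array median with and without vehicle replicate 3, 0.18 and 0.26 within slides 1 and 2, and 0.16 under bright probes. At 1 nM they were 0.053, 0.051, 0.59 and 0.21, and 0.040 within slide 1. Between the doses they were 0.055, 0.054 and 0.15 for quantile normalization, the submitters' table and slide 1. Left-out arrays gave 0.21 to 0.24 at 10 nM, 0.07 to 0.14 at 1 nM and 0.07 to 0.14 between the doses. The members' median minus that of all genes at 10 nM was 0.060 with quantile normalization and 0.070 in the submitters' table. At 1 nM it was -0.036 and -0.029.

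The Mrpl minus Mrps median was 0.031 at 1 nM in the submitters' table and -0.025 within slide 1, and -0.033 at 10 nM with the slide block. Between the doses it was 0.0041 with quantile normalization, -0.001 in the submitters' table, 0.022 within slide 1 and 0.0054 by probe. Left-out arrays gave -0.042 to 0.041 at 1 nM, -0.019 to 0.019 at 10 nM and -0.023 to 0.013 between the doses. The cause of these shifts was not tested.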
